A study of Mus musculus with 18 samples.

Results

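The genes described here belong to the integrated stress response, the programme that a cell switches on when one of its eIF2 kinases is active. They are *Atf4*, *Atf5*, *Ddit3*, *Trib3*, *Ppp1r15a*, *Asns*, *Psat1*, *Sesn2*, *Fgf21* and *Hspa5*. The 10 genes were chosen as known members of this programme and looked up by symbol in GENCODE M21 (GRCm38), where all 10 are among 55450 annotated genes. Of the 10 genes, 6 had a peak in an exon on their own strand in at least 1 undigested library, as had 5274 genes in all. A further limit, a peak in at least 2 of the 6 undigested libraries, left 4 of the 10 genes among the 3869 genes that were tested.

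The data are 18 lists of RNA peaks from mouse liver, 1 list for each sequenced library, from mice 8 to 9 days old. Editing-deficient mice (*Adar*-/-; *Mavs*-/-) lack ADAR1, the enzyme that edits adenosines of double-stranded RNA to inosines, and were compared with *Mavs*-/- mice, which still edit their RNA. Both genotypes lack MAVS, which relays the MDA5 signal, and the sample titles call the *Mavs*-/- libraries wild-type although their genotype label is *Mavs*-/-. Each genotype has 3 biological replicates of 3 fractions: Input, which is total RNA without digestion, RNase only, which was digested with RNase A/T1, and MDA5-protected, which was digested after incubation with MDA5 ΔCARD, a recombinant MDA5 without its CARD domains.

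The eIF2 kinases each answer to a different stress. PKR (*Eif2ak2*) binds double-stranded RNA, PERK (*Eif2ak3*) responds to unfolded protein in the endoplasmic reticulum, GCN2 (*Eif2ak4*) to a shortage of amino acids and HRI (*Eif2ak1*) to a shortage of heme. All of them phosphorylate the α subunit of the translation factor eIF2, which slows translation in general while the *Atf4* mRNA is translated more, and ATF4 then activates genes for amino acid supply, for transcription and for the return to normal translation. PKR does not signal through MAVS. In the liver, the response also releases FGF21, a hormone of the fasting state.

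ATF4 and the factors of ER stress are known to act through short elements in promoters of their targets, and the members whose promoters hold these letters are shown. Windows from 250 bases before to 50 bases after each start site (RefSeq, GRCm38.p6) were searched on both strands for the C/EBP-ATF response element (CARE, TGATGNAA) and the ER stress element (ERSE, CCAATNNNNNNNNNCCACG), motifs which do not overlap each other in these windows. The CARE letters were found in 3 of the 10 genes, *Asns*, *Trib3* and *Fgf21*, and in 4.51% of 27025 genes with a window. The ERSE letters were found in 1 of the 10 genes, *Hspa5*, and in 0.137% of all genes. The matches are printed below 5′ to 3′ on the strand named, with 30 bases each and the motif in capitals.
*Asns* promoter, CARE, chr6:7693214-7693243, minus strand: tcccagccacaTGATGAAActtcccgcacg
*Trib3* start region, CARE, chr2:152344028-152344057, plus strand: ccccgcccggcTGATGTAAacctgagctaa
*Fgf21* promoter, CARE, chr7:45615611-45615640, plus strand: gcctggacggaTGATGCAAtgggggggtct
*Hspa5* promoter, ERSE, chr2:34772020-34772049, plus strand: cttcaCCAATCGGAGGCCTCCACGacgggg
Relative to the RefSeq start sites, the *Asns* motif ends 15 bases before the start and reads along the gene, the *Fgf21* motif lies 131 bases before it on the opposite strand, the *Hspa5* motif lies 46 bases before it, and the *Trib3* motif lies just after it on the opposite strand. GENCODE M21 puts the outermost starts elsewhere, so that the *Asns* and *Hspa5* motifs lie inside the gene spans given below and the *Trib3* motif lies before that of *Trib3*. These matches are descriptions of letters and not of bound sites, and no list used here measures binding of a factor to DNA.

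A peak list holds areas and not reads, and the depth behind each value is therefore unknown. The area is that under the curve of significance along a peak, and the smallest area listed was 500.008. A gene without a peak may therefore still be expressed. To compare libraries, the own-strand exonic peak area of a gene was divided by the summed area of all peaks of the library and is given in ppm (parts of 1000000). The editing-deficient Input lists held 6991 to 8948 peaks and the *Mavs*-/- Input lists 4326 to 6625. A peak of the smallest area was worth 46.6 to 53.7 ppm in the former and 63.0 to 89.3 ppm in the latter, so a weak gene could enter an editing-deficient list more easily. The hepatocyte markers (*Alb*, *Apoa1*, *Ttr*, *Serpina1a*, *Tat*, *Cps1*) summed to 14630 to 19530 ppm in editing-deficient and 16820 to 25050 ppm in *Mavs*-/- Input libraries, with all 6 markers listed. Erythroid markers summed to 1399 to 2942 ppm against 6522 to 8263 ppm, and 5 of 6 were lower in editing-deficient Input (limma, adjusted P-value at most 0.05). Of the other marker lists, 1 hepatocyte gene and 1 gene of stellate cells and fibroblasts were lower and none was higher. The cholangiocyte markers *Krt19*, *Epcam* and *Sox9* were at 0 in all Input libraries, and neutrophil markers summed to 0 to 1053 ppm and 802.1 to 1648 ppm. The remaining cholangiocyte marker, *Spp1*, was listed at 49.8 and 52.5 ppm in editing-deficient replicates 2 and 3 and at 302.6 ppm in *Mavs*-/- replicate 2. The part that cell composition takes in the values below was not tested, and in bulk liver RNA fewer cells of a type and less RNA per cell cannot be told apart.

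The first question was which of these genes rose above the listing limit in Input RNA. *Atf5* and *Hspa5* had peaks in all 6 Input libraries. *Trib3*, *Asns* and *Psat1* had Input peaks in editing-deficient libraries only, in 2, 1 and 1 of the 3 libraries respectively. *Ppp1r15a* was listed in editing-deficient replicates 1 and 2 and in *Mavs*-/- replicate 3. No peak was called on either strand, in exons or introns, in any of the 18 libraries for *Atf4*, *Ddit3*, *Sesn2* and *Fgf21*.

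**Figure D1:**
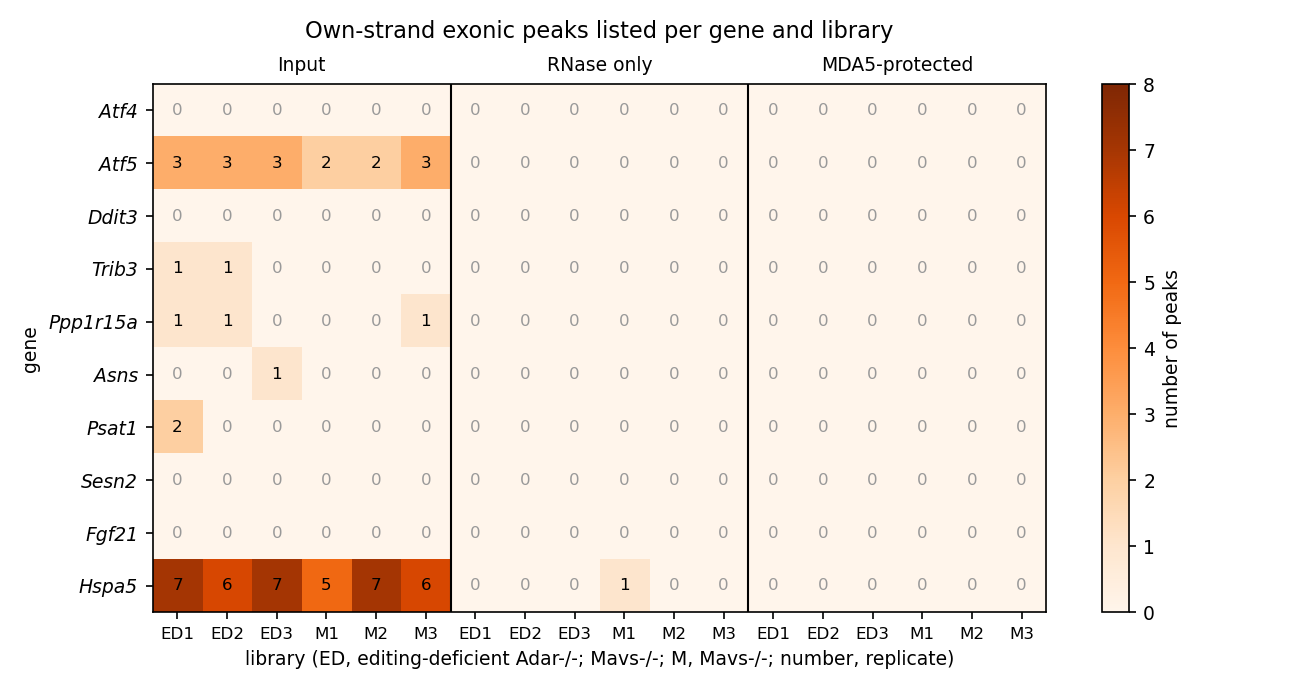
Number of own-strand exonic peaks for each of the 10 genes (rows) in each of the 18 libraries (columns; ED, editing-deficient *Adar*-/-; *Mavs*-/-; M, *Mavs*-/-; the number is the replicate), with darker cells for more peaks. *Hspa5* carried 5 to 7 Input peaks per library and *Atf5* 2 or 3, whereas the MDA5-protected columns hold 0 throughout and the RNase-only columns hold a single peak of *Hspa5*.

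Of the 6 genes with an Input peak, 3 were listed in editing-deficient libraries only and 0 in *Mavs*-/- libraries only. Among all 5274 genes with an Input peak, 34% were listed in editing-deficient libraries only and 9.4% in *Mavs*-/- libraries only. With every Input list held to its 4326 largest peaks, the same 3 genes were still listed in editing-deficient libraries only, beside 21.8% of all genes with a peak. With a minimum area of 1000, *Asns* left the list and 2 such genes remained of 5 with a peak, beside 37.7% of all genes with a peak. The count rested on single libraries, since without editing-deficient replicate 1 *Psat1* had no Input peak, without editing-deficient replicate 3 *Asns* had none, and without *Mavs*-/- replicate 3 *Ppp1r15a* too was listed in editing-deficient libraries only.

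*Atf4* encodes the transcription factor at the centre of the response (chromosome 15, 80255184 to 80257541, plus strand). It was listed at 0 in all 6 Input libraries, so no stretch of it reached the limits of the peak caller, which says nothing of how much its mRNA was translated. *Ddit3* encodes CHOP, a factor of prolonged stress (chromosome 10, 127290774 to 127296288, plus strand), and was listed at 0 as well. GENCODE M21 holds a second gene identifier for *Ddit3* with 105 exonic bases, and no peak was called there.

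*Atf5* encodes a further stress-induced transcription factor, related to ATF4 (chromosome 7, 44812256 to 44816658, minus strand, with 1993 exonic bases). Its own-strand Input share was 1388, 1125 and 1076 ppm in editing-deficient replicates 1, 2 and 3, and 1116, 962.3 and 1134 ppm in *Mavs*-/- replicates 1, 2 and 3. The highest share was that of editing-deficient replicate 1 and the lowest that of *Mavs*-/- replicate 2, while the others overlapped. The means were 1196 ± 167.8 ppm and 1071 ± 94.3 ppm (SD, n = 3), a difference of 0.15 on the scale of log2(ppm + 10) with a standard error of 0.15, which did not pass the test (limma, adjusted P-value 0.508).

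The undivided area of *Atf5* was larger in editing-deficient Input, at 12170 ± 703 against 7107 ± 1806 (SD, n = 3), and the 2 groups did not overlap (exact permutation test, two-sided, p = 0.10, below which 3 against 3 libraries cannot go). The area of 31.9% of the genes tested was likewise higher in all editing-deficient libraries, so this share of the background stands beside the *Atf5* value. Its peaks covered 1713, 1707 and 1701 exonic bases in editing-deficient replicates 1, 2 and 3 and 1474, 1315 and 1674 in the *Mavs*-/- replicates. These groups did not overlap either (exact permutation p = 0.10, 0.376 after Benjamini-Hochberg adjustment over the genes tested), as in 22.5% of the genes tested. The editing-deficient Input lists covered more bases in all, and as a share of the covered bases of the library *Atf5* was lower in editing-deficient Input, by 0.51 on the log2 scale (−0.51; limma, adjusted P-value 0.0404), where the median of genes listed in all 6 libraries was −0.58.

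*Trib3* encodes a pseudokinase that is induced by ATF4 and CHOP and restrains AKT and ATF4 itself (chromosome 2, 152337422 to 152344032, minus strand). It was listed at 137.7 and 49.0 ppm in editing-deficient Input replicates 1 and 2 and at 0 in replicate 3 and in all 3 *Mavs*-/- libraries. The peaks lay in exon 4 of 4, over 478 coding and 429 3′ UTR bases in replicate 1 and over 374 bases of 3′ UTR alone in replicate 2. The value of replicate 2 was below the smallest share that any *Mavs*-/- Input library could list. *Trib3* entered the test through the editing-deficient libraries alone and did not pass it (limma, adjusted P-value 0.185), except without editing-deficient replicate 3 (adjusted P-value 0.0152). With libraries without a peak at the smallest share that they could list, the sign turned (−0.14, adjusted P-value 0.814).

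*Ppp1r15a* encodes GADD34, the subunit that brings a phosphatase to eIF2 and ends the response (chromosome 7, 45522916 to 45526268, minus strand). Its Input share was 67.4 and 77.5 ppm in editing-deficient replicates 1 and 2 and 172 ppm in *Mavs*-/- replicate 3, with the other 3 libraries at 0. The largest value was thus in a *Mavs*-/- library, and the groups overlapped. All 3 peaks lay in coding sequence of exon 1 of the transcript used here. The mean share was lower in editing-deficient Input, at 48.3 ± 42.1 against 57.4 ± 99.4 ppm (SD, n = 3), while the log2 difference, which depends on the values given to the 3 libraries at 0, was 0.63 with a standard error of 1.50 (limma, adjusted P-value 0.811). It turned negative where both groups were given equal numbers of peaks (−0.30) or quantile normalized (−0.76).

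*Asns* encodes asparagine synthetase, a classic target of ATF4 (chromosome 6, 7675169 to 7693254, minus strand). Its only peak was in Input of editing-deficient replicate 3, at 75.1 ppm, over 23 bases of 5′ UTR and 249 coding bases of exon 2 of 12. *Psat1* encodes phosphoserine aminotransferase, an enzyme of serine synthesis (chromosome 19, 15904678 to 15947337, minus strand). Both of its own-strand peaks came from Input of editing-deficient replicate 1, at 145 ppm over the end of the gene in exon 9 of 9 and at 58.2 ppm over 141 coding bases of exon 4. Each of these genes was seen in 1 library and so did not reach the limit of 2 libraries. Where genes with a peak in at least 1 library were tested, *Asns* and *Psat1* did not pass (limma, adjusted P-value 0.471 each). *Sesn2*, which encodes Sestrin 2, a sensor of leucine upstream of mTORC1 (chromosome 4, 132492032 to 132510501, minus strand), and *Fgf21* (chromosome 7, 45613886 to 45615490, minus strand) were listed at 0 in all libraries.

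*Hspa5* encodes BiP, an abundant chaperone of the endoplasmic reticulum and a target of ATF6 as well as of ATF4 (chromosome 2, 34771970 to 34777547, plus strand, with 4229 exonic bases). Its Input share was 1268, 1107 and 905.4 ppm in editing-deficient replicates 1, 2 and 3 and 1054, 1860 and 1097 ppm in *Mavs*-/- replicates 1, 2 and 3. The groups overlapped, and *Mavs*-/- replicate 2 stood above all other libraries. The means were 1093 ± 181.7 ppm and 1337 ± 453.5 ppm (SD, n = 3), a log2 difference of −0.25 with a standard error of 0.26 (limma, adjusted P-value 0.538). Without *Mavs*-/- replicate 2 the difference was 0.01.

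**Figure D2:**
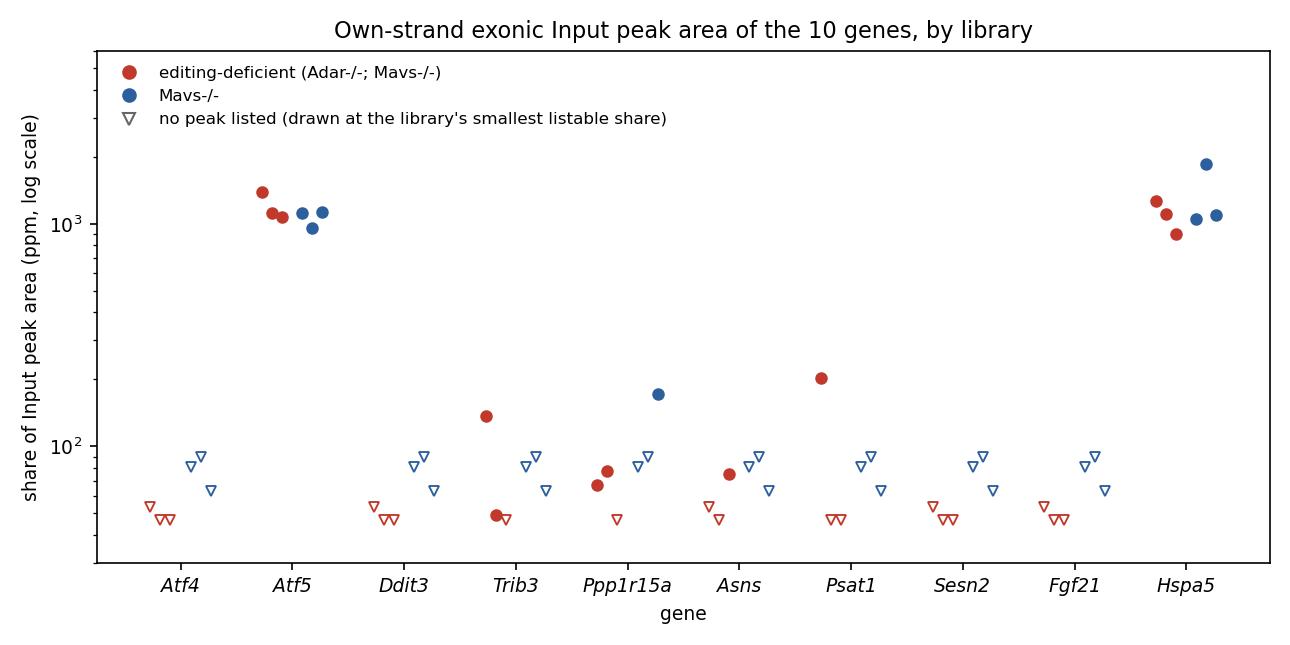
Own-strand exonic Input peak area of each gene as a share of the library's summed peak area (vertical axis, ppm, log scale), with 1 point per library, red for editing-deficient and blue for *Mavs*-/-, and replicates 1 to 3 from left to right. Open triangles mark libraries without a peak and sit at the smallest share the library could list. *Atf5* and *Hspa5* lie between 905.4 and 1860 ppm with the groups overlapping, and the other listed genes lie between 49.0 and 203 ppm.

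In the Input comparison over all 3869 genes, 310 genes (8.01%) were higher and 159 (4.11%) lower in editing-deficient liver (limma, adjusted P-value at most 0.05). Of the 4 stress response genes tested, 0 were called in either direction. An unadjusted P-value under 0.05 (limma) was found for 0 of the 4, beside 1032 of all 3869 genes. The median log2 difference of genes listed in all 6 Input libraries was −0.22, against which *Hspa5*, at −0.25, lay close to the middle and *Atf5*, at 0.15, above it. The shares of 16.7% of all tested genes were higher in every editing-deficient library and those of 15.6% lower, without overlap of the groups, and 0 of the 4 genes were among them. Per kilobase of exon, the level of *Atf5* was 600 ± 84.2 and 537 ± 47.3 ppm per kb and that of *Hspa5* 259 ± 43.0 and 316 ± 107 ppm per kb in editing-deficient and *Mavs*-/- Input (SD, n = 3). *Atf5* was above *Hspa5* in every library on this scale, and the other members were listed in at most 3 of the 6 Input libraries. The scale divides by all annotated exonic bases, of which peaks covered 66 to 86% in *Atf5* and 45.4 to 62.1% in *Hspa5*. It holds areas of significance, so it does not rank the amounts of the 2 mRNAs. The share of *Atf5* ranked at the 86.7th to 95.9th percentile and that of *Hspa5* at the 90.8th to 95.6th percentile of the genes listed in the same Input library.

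Most peak edges of *Hspa5* lay at exon edges. Of 76 peak edges in *Hspa5* Input, 49 lay within 5 bases of an exon edge, whereas in *Atf5* 13 of 32 did so. Some peaks of both genes ran into introns of the transcripts used. In *Hspa5*, the peaks over exons 5 and 6 spanned the intron between them in all 6 Input libraries. The joins of *Hspa5* exons at which the peaks of all 6 Input libraries stopped are shown because they mark where the peaks ended, and each is the spliced sequence of the transcript, 15 bases of an exon in lower case and 15 of the next exon in capitals (GRCm38, plus strand).
Exon 2 to exon 3: gaccacctattcctgCGTCGGTGTGTTCAA
Exon 3 to exon 4: ttcttgccattcaagGTGGTTGAAAAGAAA
Exon 6 to exon 7: gaagagctgaacatgGACCTGTTCCGCTCT
These joins are coding sequence. After the join from exon 2 to exon 3, the next peak began at the edge in 6 of 6 libraries, after that from exon 3 to exon 4 in 3, and after that from exon 6 to exon 7 in 2.

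Along *Atf5*, exon 3 with most of the coding sequence and the 3′ UTR held the largest part of the area, at 869 ± 126 and 835 ± 78.8 ppm (SD, n = 3) in editing-deficient and *Mavs*-/- Input. Exon 2 held 227 ± 48.8 and 214 ± 14.1 ppm, and both exons overlapped between the groups. Exon 1, which is 5′ UTR, was listed at 94.6, 96.6 and 109 ppm in the editing-deficient replicates and at 0, 0 and 64.9 ppm in the *Mavs*-/- replicates. All editing-deficient values were above the *Mavs*-/- values there, as were the shares over whole genes of 16.7% of the genes tested. The values of exon 1 lie near the listing limits of the libraries. This exon overlaps *Nup62* and *Il4i1* on the opposite strand, with which the *Atf5* transcript shares a stretch of up to 85 bases, and the strand of the reads assigned the peak to *Atf5*. No other gene of the 10 shared 75 or more bases at 95% identity or above with another gene.

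Along *Hspa5*, peaks over exons 1 and 2, exon 3, exons 5 and 6, exon 7 and exon 9 were listed in all 6 Input libraries. Exon 4 was listed in 2 editing-deficient libraries and 1 *Mavs*-/- library, and exon 8 in 3 and 2. The share of exon 3 was 183, 176 and 183 ppm in the editing-deficient replicates and 223, 317 and 210 ppm in the *Mavs*-/- replicates. It was the only one of the 7 stretches in which the shares of the groups did not overlap, and it was chosen after its values were seen. Over whole genes, the shares of 15.6% of the genes tested were lower without overlap. By undivided area, only exons 5 and 6 did not overlap, and there the editing-deficient values were higher (2547 to 2810 against 1844 to 2143). The undivided area of 31.9% of the genes tested was likewise higher.

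**Figure D3:**
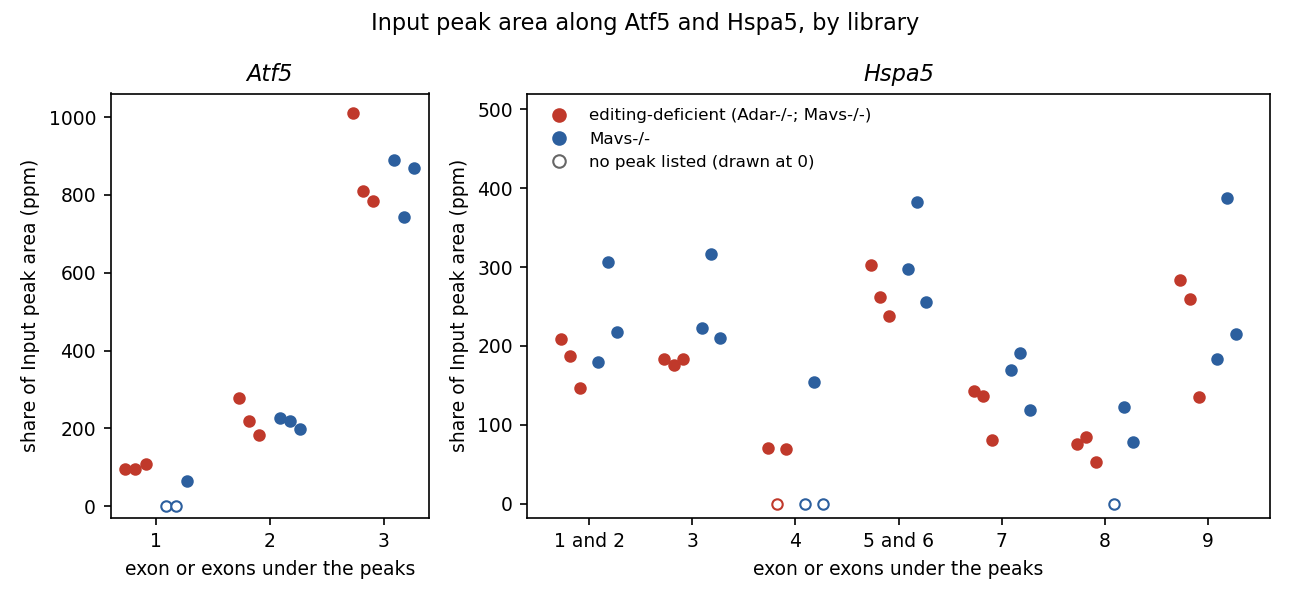
Input peak area along *Atf5* (left) and *Hspa5* (right) as a share of the library's summed peak area (vertical axes, ppm), by the exon or exons under the peaks, with 1 point per library, red for editing-deficient and blue for *Mavs*-/-. Open circles at 0 are libraries without a peak. *Atf5* exon 1 is listed in all 3 editing-deficient libraries and in 1 *Mavs*-/- library, and *Mavs*-/- replicate 2 is the highest library in each stretch of *Hspa5*.

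The digested fractions were then searched, since RNA that survives RNase may be structured or bound. A gene can be listed in them without an Input peak. Of the 10 genes, *Hspa5* alone had an RNase-only peak, in *Mavs*-/- replicate 1. It covered 177 bases of the 3′ UTR in exon 9 (chromosome 2, 34776297 to 34776473), with an area of 896.211 and a share of 111 ppm, and the other 5 RNase-only libraries were listed at 0. With a minimum area of 1000 it was not listed. Thus 1 of the 6 genes with an Input peak had an RNase-only peak, beside 29.8% of all 5274 such genes. In the RNase-only comparison 0 of 1901 genes (0%) were called (limma, 56 at an unadjusted P-value under 0.05), and none of the 10 genes had peaks in the 2 libraries needed to be tested. The cell type markers of the digested lists differed from those of Input. *Krt19* and *Epcam*, epithelial genes that mark cholangiocytes and other epithelia, had RNase-only peaks in all 6 libraries, at 555.2 to 858.9 and 558.9 to 1205 ppm in editing-deficient and 1201 to 1300 and 711.8 to 1283 ppm in *Mavs*-/- libraries. They also had MDA5-protected peaks, *Epcam* in all 6 libraries and *Krt19* in 2 of 3 editing-deficient and 3 of 3 *Mavs*-/- libraries. The other cholangiocyte markers, *Spp1* and *Sox9*, had no own-strand exonic peak in the digested lists. *Slc26a3* and *Gpa33*, known from intestinal epithelium, were chosen after their values were seen. Like *Krt19* and *Epcam*, they were at 0 in Input and listed in all 6 RNase-only libraries, at 443.6 to 1528 and 548.1 to 1419 ppm. They had MDA5-protected peaks in 3 of 3 editing-deficient and 0 of 3 *Mavs*-/- libraries, a split whose share among all genes was not counted. *Lypd8*, chosen in the same way, was also listed in all 6 RNase-only libraries. Unlike them, it had Input peaks in 2 of 3 libraries of each genotype, at up to 278 ppm in editing-deficient and 180 ppm in *Mavs*-/- Input. Its MDA5-protected peaks were in 2 of 3 editing-deficient and 3 of 3 *Mavs*-/- libraries. The 6 hepatocyte and 6 erythroid markers had no exonic peak in the digested lists, which were called against Input. The part of these cell types in the values of the digested lists was not tested.

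None of the 10 genes had an MDA5-protected peak in any of the 6 libraries of that fraction, in exons or introns. Among all genes with an Input peak, 4.91% had an MDA5-protected exonic peak and 14.2% had one anywhere in the gene. These values describe peaks over Input of the same genotype, so a gene that is itself absent from Input may be absent here for want of RNA.

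The kinases that start the response were read from the same lists. *Eif2ak2* (PKR) had no Input peak, but its 3′ UTR in exon 16 carried an RNase-only peak in editing-deficient replicate 3 (91.5 ppm) and in *Mavs*-/- replicates 1 and 2 (75.8 and 82.7 ppm), and an MDA5-protected peak in editing-deficient replicate 3 (77.4 ppm). The MDA5-protected peak spanned 78853784 to 78854076 of chromosome 17, inside the RNase-only peak stretch of 78853720 to 78854080. *Eif2ak3* (PERK) had an Input peak of 56.9 ppm in exon 13 in editing-deficient replicate 1, and editing-deficient replicate 2 held 2 RNase-only peaks in its introns. *Eif2ak1* and *Eif2ak4* had no peak in any library. Of the 13 genes for the eIF2 kinases, eIF2, its exchange factor eIF2B and the phosphatase subunit *Ppp1r15b*, 6 had an Input peak. Of these, 2 were tested and 0 were called (limma, 0 at an unadjusted P-value under 0.05, beside 1032 of all 3869 genes).

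As a check of the labels, *Mavs* had no peak in any library, and *Adar* had Input peaks over exon 2 in editing-deficient replicates 2 and 3 (85.5 and 64.0 ppm) and in no *Mavs*-/- library. A peak in exon 2 does not tell whether the transcript carries the deleted part, so it checks nothing about the genotype.

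A wider list of 40 known ATF4 targets was examined beside the members. Of 39 found in the annotation, 21 had an Input peak and 18 were tested. In the test, 3 of 18 genes were called higher in editing-deficient Input and 0 lower (limma), beside 8.01% and 4.11% of all genes tested. At an unadjusted P-value under 0.05 (limma) there were 3 and 1, beside 1032 of all 3869 genes in either direction. The 3 genes called higher were *Gpt2*, *Cdkn1a* and *Ddit4*, each listed at 0 in all *Mavs*-/- Input libraries. They are among 7 genes of the list, and 753 of all 3869, that entered the test through editing-deficient libraries alone, where unlisted values stand below a listing limit that is higher in the *Mavs*-/- lists, so their P-values and the count are a description of what was listed. *Gpt2*, a mitochondrial alanine aminotransferase, was listed at 716, 266 and 875 ppm in editing-deficient replicates 1, 2 and 3 (adjusted P-value 0.0136). *Cdkn1a*, the cell cycle inhibitor p21 and also a p53 target, was listed at 223, 242 and 124 ppm (adjusted P-value 0.0167). *Ddit4*, the mTORC1 inhibitor REDD1, was listed at 179, 107 and 108 ppm (adjusted P-value 0.0191). In the RNase-only lists, *Cdkn1a* had peaks in 1 of 3 editing-deficient and 3 of 3 *Mavs*-/- libraries. *Ddit4* had RNase-only peaks in 1 of 3 libraries of each genotype and *Gpt2* in none.

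The summed share of this list was 2205 to 3551 ppm in editing-deficient and 311 to 2152 ppm in *Mavs*-/- Input. The fitted difference was above 0 for 16 of the 18 genes, with a median of 2.05, against a median of 0.58 over all 3869 genes tested. These medians rest on genes listed at 0. Where libraries without a peak were given the smallest share that they could list, the median of the list was 0.06 and that of all genes −0.23, and 9 of the 18 genes were above 0. With these values 3 genes of the list were called higher and 3 lower, beside 6.2% and 18.9% of all genes tested. *Gpt2* (log2 difference 2.69, standard error 0.43, adjusted P-value 0.00611) and *Cdkn1a* (1.20, 0.38, 0.0446) were still called higher, whereas *Ddit4* was not (0.67, 0.34, 0.184), and *Cebpb* was called in addition (1.41, 0.37, 0.0265). The lower genes were *Shmt2* (−1.99), *Slc7a5* (−0.71) and *Sars* (−0.47). Of these, *Sars* was listed at 0 in all *Mavs*-/- Input libraries, so that its sign rests on the limits alone. *Cebpb*, *Slc7a5* and *Sars* are named after their values were seen. Of the 18 alternatives that tested them, *Gpt2* was called in 17 and *Cdkn1a* and *Ddit4* in 15 each. In the fit at the limit and in the other alternatives, own-strand Input peaks of these 3 genes came from editing-deficient libraries alone. The calls are thus again a description of what was listed. *Shmt2*, chosen after its values were seen, went the other way with 63.9, 66.8 and 0 ppm in editing-deficient against 216, 291 and 284 ppm in *Mavs*-/- Input, which did not pass the test (limma, adjusted P-value 0.0944) except with a pseudocount of 100 ppm, equal numbers of peaks, quantile normalization, unlisted values at the limit, or without editing-deficient replicate 3.

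**Figure D4:**
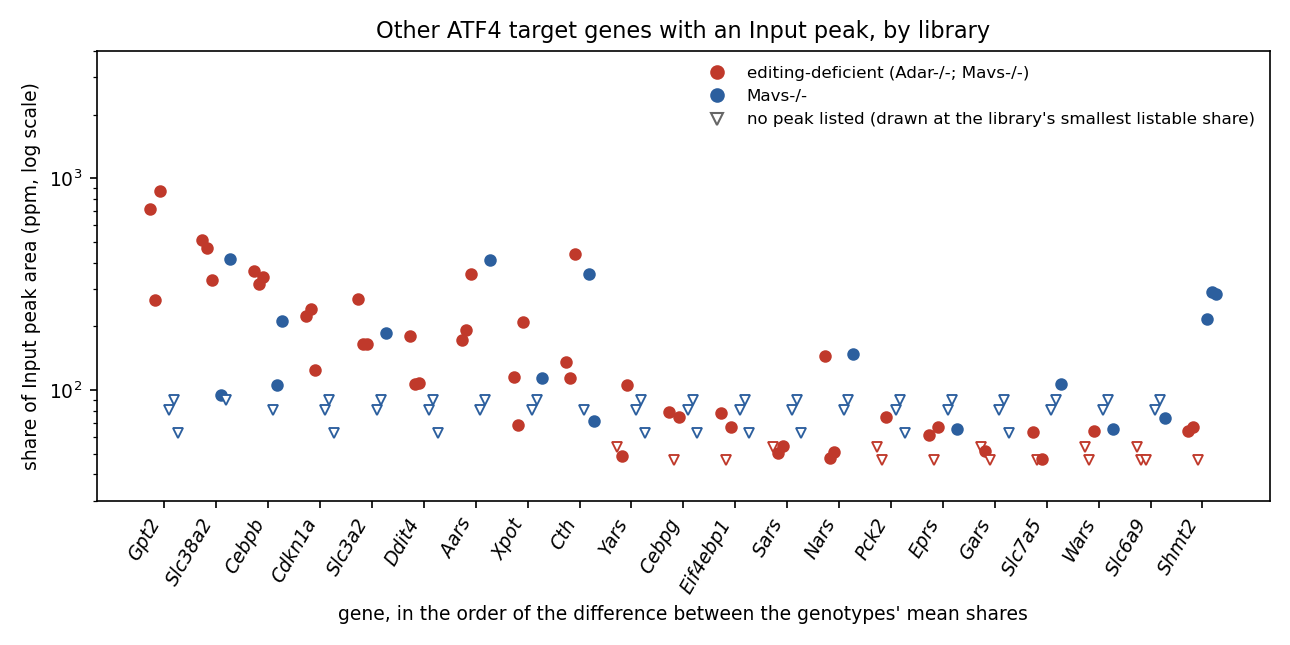
Own-strand exonic Input peak area of the 21 other ATF4 target genes with an Input peak, as a share of the library's summed peak area (vertical axis, ppm, log scale), with 1 point per library, red for editing-deficient and blue for *Mavs*-/-. Open triangles mark libraries without a peak at the smallest share they could list. *Gpt2* stands farthest above the limits of the *Mavs*-/- libraries, while most genes on the right lie at or under those limits.

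The list of ER chaperones and targets of ATF6 or XBP1, the genes nearest to *Hspa5* in function, held 26 genes, of which 19 had an Input peak and 17 were tested. Of these, 1 was called higher and 0 lower (limma), a share under the 8.01% and 4.11% of all genes tested. At an unadjusted P-value under 0.05 (limma) there were 4 and 0, beside 1032 of all 3869 genes in either direction. The called gene was *Syvn1*, a ubiquitin ligase of ER-associated degradation (adjusted P-value 0.0222), which also entered the test through editing-deficient libraries alone. Its P-values and calls are thus a description of what was listed. *Syvn1* was listed at 360, 349 and 60.1 ppm in editing-deficient replicates 1, 2 and 3 and at 0 in *Mavs*-/- Input, and was called in 11 of the 18 alternatives that tested it (adjusted P-values from 0.00636 to 0.19), not among them unlisted values at the limit (0.148) or those without *Mavs*-/- replicate 1 or 2. The list summed to 3921 to 7459 ppm and 4368 to 5171 ppm, with a median log2 difference of 0.74, or 0.17 with unlisted values at the limit. Of the 19 genes of this list with an Input peak, 0 had an MDA5-protected exonic peak and 4 had one anywhere in the gene. Of the 21 other ATF4 targets with an Input peak, 1 (*Cebpg*, named after its values were seen) and 3 did, beside 4.91% and 14.2% of all genes with an Input peak.

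By the pattern over all 18 libraries, the genes most like *Hspa5*, the member with the largest mean Input share, were *Sema4g*, *Tpi1* and *Gm5835*, each with a Pearson correlation of 0.998 among 3868 genes compared. All of these genes are listed in all Input libraries and in 1 digested library. The points share their libraries and fall into Input values and digested values near 0, so the correlation is given as a description.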

How the data were processed

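Liver RNA of 2 genotypes and 3 fractions was sequenced in 3 replicates (18 libraries). Reads had been trimmed (Trim Galore 0.6.6) and aligned to GRCm38 (NextGenMap) by the authors, who called peaks for each library and strand with Genrich 0.6.1, with Input of the same genotype as control for the digested libraries. As deposited, the signal of a peak is the area of its significance curve above the threshold, a measure that grows with depth. The deposited −log10 P-values and −log10 adjusted P-values (at least 3.12) and the deposited score, which is the area per base, were not used for comparisons.

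Own-strand peaks overlapping an exon were assigned to genes with bedtools 2.31.1, and 173 of 82353 peaks lay on scaffolds without annotation. Summed areas were divided by the library total and scaled to ppm (parts per 1000000). Genes with a peak in at least 2 of 6 libraries were tested with limma 3.58.1 (R 4.3.3, trended variance) on log2(ppm + 10), with Benjamini-Hochberg adjustment over all genes tested, and the fit was tested on simulated data. Differences on this scale understate changes of low genes listed in both groups, and exceed what the listing limit supports for genes unlisted in a group. Covered bases were compared by exact permutation tests. Promoters came from RefSeq, shared stretches from BLAST 2.17.0, and plots from matplotlib 3.10.9 in Python 3.11.15.

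The members and gene lists were chosen with earlier results of these data known. Named are all members, genes of each list past the threshold (at most 4 per list and direction), the eIF2 kinases, *Adar*, *Mavs* and the 3 genes most like the member with the largest mean Input share.

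Alternatives were pseudocounts of 1 and 100 ppm, a peak in at least 1 or 4 libraries, equal numbers of peaks, a minimum area of 1000, quantile and median scaling, covered bases, the middle base in an exon, strands ignored, introns included, each library left out and the replicate number as a block. Unlisted genes at the smallest listable share, list counts under each alternative and member peaks with each library left out were added after seeing the data. Principal components and editing were not analysed here.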

Additional observations from a re-analysis of the deposited data

Results flagged for a closer look

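A peak was listed on the strand opposite to *Psat1* in Input of editing-deficient replicate 1, outside the own-strand values compared above. It spanned 43 bases of chromosome 19 (15924489 to 15924531, plus strand) with an area of 503, or 54.0 ppm, close to the smallest area that was listed, and no *Mavs*-/- Input library held a peak there. The own-strand *Psat1* peaks came from the same library. The *Psat1* peak was noticed because it lies in data that no comparison used. Groups of 3 libraries are too small for a test of single outlying libraries.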

How the results depend on the processing

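Against 310 genes higher and 159 lower in the Input comparison, the numbers of higher and lower genes were 19 and 37 with a peak in at least 4 libraries, 161 and 180 with equal numbers of peaks, 187 and 167 with a minimum area of 1000, 144 and 169 with quantile normalization, 369 and 62 with median scaling, 240 and 733 with unlisted genes at the smallest listable share, and 99 to 611 and 24 to 256 with 1 library left out (99 and 24 without *Mavs*-/- replicate 1, 611 and 256 without *Mavs*-/- replicate 3, and 587 higher without editing-deficient replicate 1). In the RNase-only comparison, 4 genes were higher and 1 lower with a peak in at least 1 library, and 1 was lower with quantile normalization or unlisted genes at the limit. The higher ATF4 targets numbered 3 in the main test, 0 with a peak in at least 4 libraries and 3 to 7 with 1 library left out (7 without *Mavs*-/- replicate 3 and 5 without editing-deficient replicate 1 or 2). The higher ER genes numbered 1 in the main test, 2 with a pseudocount of 100 ppm, 0 with a peak in at least 4 libraries, 4 with median scaling, 2 with unlisted genes at the limit and 0 to 2 with 1 library left out (2 without editing-deficient replicate 1 or 3 and 0 without *Mavs*-/- replicate 2). No member had an RNase-only peak (0) with a minimum area of 1000. *Atf5* reversed with covered bases (−0.51, adjusted P-value 0.0404, where the median of genes listed in all libraries was −0.58). *Trib3* reversed with unlisted values at the limit (−0.14). *Ppp1r15a* reversed with equal numbers of peaks (−0.30), quantile normalization (−0.76), unlisted values at the limit (−0.70) and without *Mavs*-/- replicate 1 or 2 (−0.07 each), in a range of −0.07 to 2.03 with 1 library left out. *Hspa5* reversed with median scaling (0.30) and without *Mavs*-/- replicate 2 (0.01), in a range of −0.40 to 0.01. The cause of these shifts was not tested. The sample titles do not say whether libraries with the same replicate number share anything but the number, and a shared batch was not tested. Their deviations from the group means correlated between −0.00303 and 0.0259 in Input and between 0.0441 and 0.0827 in RNase-only libraries. Each RNase-only library correlated best with its own number. With the replicate block, 0 genes were called higher and 0 lower in Input, hence 0 ATF4 targets and 0 ER genes, with 940 genes at an unadjusted P-value under 0.05. Without read counts, a gene under the listing limit cannot be told from one that is not expressed.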
